A study of Homo sapiens with 8 samples.

Results

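The data described here are 878 peaks of N6-methyladenosine (m6A) that the deposited table labels as lying inside a 5′ UTR, out of 37501 peaks in all. They were chosen by that label alone (UTR5 in the table), over 4 treatments, and they fall in 419 of 25918 gene models, all coding. By treatment the table lists 370 of them for UV, 265 for heat shock, 162 for the ligand HGF and 81 for the ligand IFNg. The cells, labelled HepG2, a human hepatocarcinoma line, were given UV light at 0.04 J/cm2 with 4 h of recovery, heat shock at 43 °C for 30 min, HGF/SF at 10 ng/ml overnight, or IFNg at 200 ng/ml overnight. Each treatment had 1 library of RNA fragments bound by an anti-m6A antibody (IP) and 1 input library, 8 libraries in all, with no replicate and no untreated sample analysed here. All differences between treatments below therefore compare single library pairs and carry no test. Intervals are exact Clopper-Pearson 95% intervals and cover only the counting of peaks or sites, not the spread between cultures.

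m6A is laid on nascent mRNA mostly by the METTL3-METTL14 methyltransferase, at adenosines in a short sequence of the form GGAC, and is read by proteins such as the YTH family. In most mRNAs it is densest in long internal exons and near the stop codon. The 5′ UTR, or leader, is the stretch that the ribosome scans before the coding start. m6A in leaders has been studied in connection with translation under stress that does not depend on the cap. Antibodies against m6A also bind m6Am, the dimethylated adenosine found beside the cap.

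In the table the label TxStart takes every peak up to position 199 of a transcript, and labels UTR5 and CDS begin at position 200. A peak can thus be called UTR5 only in a leader longer than that, and peaks nearer to the cap are counted here as transcript start peaks. Expression was deposited as a rank among gene models, written here as a percentile, and each peak carries a score of the authors with a minimum of 2. Where 4 values follow each other without labels, they belong to UV, heat shock, HGF and IFNg as listed. Neither the formula of that score nor the read depth is given in the sources used here. Of 8 hepatocyte markers, TTR was at percentiles 76.1, 71.5, 43.0 and 42.0 after UV, heat shock, HGF and IFNg, and the other 7 did not exceed 57.6 in any treatment. The lowest percentile differed between treatments, at 45.5, 32.7, 20.4 and 18.4, so values near it cannot be compared between them. FGB was at the lowest percentile in all 4 treatments. ALB was at 45.5, 57.6, 24.9 and 22.3, the UV value being the lowest percentile of that treatment. Of 4 blood cell markers none exceeded 55.2. Of 4 cholangiocyte markers KRT7 stood at 99.2 to 99.8 and KRT19 at 58.8 to 79.2, while SOX9 stood at 43.8 to 61.0 and EPCAM at the lowest percentile in 3 treatments. Of 5 fibroblast and endothelial markers DCN stood at 68.6 to 80.0 and COL1A1 at 60.7 to 83.6, while COL1A2, PECAM1 and VWF did not exceed 54.4. The hepatocyte levels go against the liver label, and the other lists are mixed, so the cells are called only by their label here.

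The stretches around the core motif show leader sites of this set that hold it. They were chosen from the genes named by rule whose first exon matched a GENCODE 29 transcript of the same length. Only sites with a GGAC inside about 101 nt centred on the site could be shown, and 76 of 106 UTR5 windows held it. Each stretch shows 30 nt, with the nearest GGAC of the leader in capitals. The first 4 were listed after all 4 treatments, the next pair after 3, and the last pair after 1.
PRKD3: ctgctttttgatgGGACtgatattaagaga
CDC42BPA: cttaaagaaagaaGGACctcgggaggagaa
CALML4: cagcagacggggaGGACtgaatcccagcct
MSL2: ctggaagtctcagGGACggaggggcgccaa
XPO1: tccccggccgtgtGGACtctacacccccta
FOSB: cccgagcttccccGGACagcgtactttgag
DDX3X: gctaggggcgacaGGACtaagtaggaaatc
ACTR3: ccggctaccccccGGACggtgaaggcggcc

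All 8 lie in exon 1 and inside the 5′ UTR of the matched transcript, and the coordinates are those of GRCh38. The PRKD3 stretch, from a protein kinase D gene, is at chr2:37316720-37316749 on the minus strand, in a leader of 555 nt. CDC42BPA encodes a kinase that acts downstream of CDC42, and its stretch is at chr1:227317842-227317871, minus strand, in a leader of 943 nt. CALML4, a calmodulin-like gene, has its stretch at chr15:68205787-68205816, minus strand, in a leader of 931 nt. MSL2, a subunit of a histone acetyltransferase complex, has it at chr3:136195301-136195330, minus strand, in a leader of 733 nt. In the nuclear export receptor XPO1 the stretch is at chr2:61537935-61537964, minus strand, and the A of the motif lies 2 nt past the site. The same A lies at -1 nt from the site in FOSB, an AP-1 transcription factor, at chr19:45468428-45468457 on the plus strand. DDX3X, an RNA helicase that acts in translation initiation, has its stretch at chrX:41333980-41334009, plus strand, with an offset of 9 nt. ACTR3, a subunit of the actin-nucleating ARP2/3 complex, has it at chr2:113890148-113890177, plus strand, with an offset of -20 nt. A nearby motif was a condition of being shown, and in these 8 genes it lay within 33 nt of the site, on either side of it.

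Leader sites held the m6A core motif more often on the transcribed strand than on the other one. The check used sites, that is, peaks of a gene model joined when neighbours lay within 100 nt, in models whose first exon had the same length as exon 1 of a GENCODE transcript of that gene. Of 309 gene models with a UTR5 peak in exon 1, 98 matched (31.7%). In the matches with an annotated coding start, all 193 UTR5 peaks lay before that start, against 1 of 462 peaks labelled CDS. In windows of 101 nt centred on the site, GGAC was present in 76 of 106 UTR5 windows (71.7%, interval 62.1 to 80.0), and its reverse complement GTCC in 28 (26.4%, 18.3 to 35.9). In transcript start sites GGAC was present in 51.7% of 263 windows (45.5 to 57.9) and GTCC in 35.7%. Coding sites in exon 1 had GGAC in 78.3% of 226 windows (72.4 to 83.5) and GTCC in 28.3%. At this window size the UTR5 interval for GGAC lay above that of transcript start sites and overlapped that of coding sites. In windows of 51 nt GGAC was in 46.7% of UTR5 sites (37.0 to 56.6) and 32.1% of transcript start sites (26.9 to 37.7), and in windows of 201 nt in 88.3% (80.0 to 94.0) and 78.4% (68.8 to 86.1). UTR5 sites were higher at all 3 sizes, but at these other sizes, chosen after seeing the data, the intervals overlapped.

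The longer form GGACT, which contains GGAC, was in 31.1% of UTR5 windows and its reverse complement AGTCC in 3.77%. Over all windows of the same leaders from position 200 to the coding start, GGAC was present in 40.6% and GTCC in 28.99%. Windows of 101 nt over the leaders of 11557 GENCODE genes with a leader of at least 200 nt had GGAC in 35.2% and GTCC in 30.8%. A match describes the letters of the window and is not a mapped modified base.

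**Figure D1:**
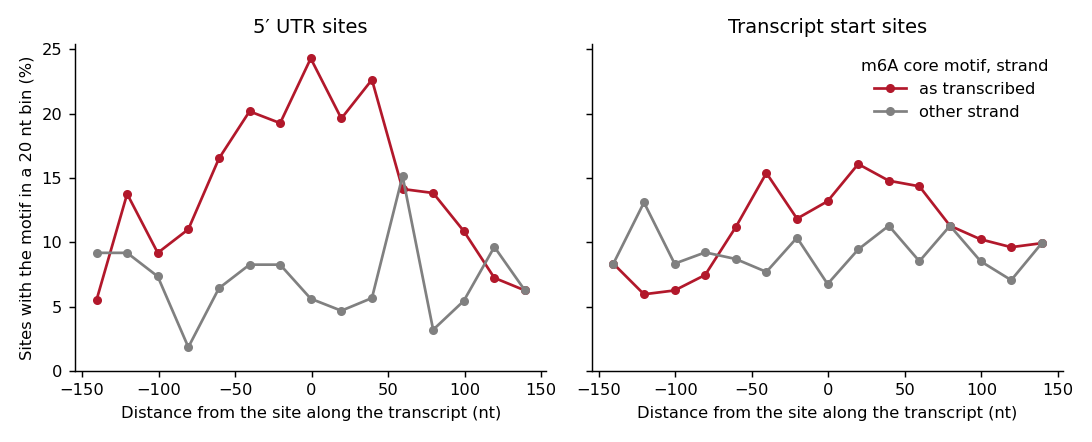
Share of sites (y axis, %) with the core motif in each bin of 20 nt along the transcript (x axis, distance from the site in nt), for 5′ UTR sites at the left and transcript start sites at the right. Red is the motif as transcribed and grey the other strand. For 5′ UTR sites the red line reaches 24.3% in the bin from -10 to 9 nt, where the grey line is at 5.61%.

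The share of motif windows was close between sites of different treatments, and base composition was less so. Sites listed after UV or heat shock only had GGAC in 71.6% of 74 windows (59.9 to 81.5), and sites listed after HGF or IFNg, with or without the others, in 71.9% of 32 (53.3 to 86.3). The median GC content of those windows was 67.8% (quartiles 59.4 and 72.3) for the UV or heat shock sites and 58.9% (48.5 and 66.6) for the sites with HGF or IFNg. The part of base composition in the differences between treatments was not tested. The 95 matched leaders with a coding start had a median length of 541 nt (quartiles 368.5 and 789.5), against 395 nt over the 11557 GENCODE genes. The matched set can hold only leaders over 200 nt that stay in exon 1 as far as the peak. Sites lay a median of 143 nt before the coding start (quartiles 71.25 and 300), at 70.4% of the leader's length, and 36 of 106 lay within 100 nt of it.

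UTR5 peaks took a larger share of the peaks after UV and heat shock than after HGF and IFNg. They made up 2.86% of the 12945 annotated UV peaks (2.58 to 3.16) and 2.76% of the 9585 heat shock peaks (2.45 to 3.11). Of the 8856 HGF peaks they were 1.83% (1.56 to 2.13), and of the 5165 IFNg peaks 1.57% (1.25 to 1.95). The UV and heat shock intervals lay above both ligand intervals. In the 2793 gene models with a peak of any kind in all 4 treatments, the shares were 2.60% (2.23 to 3.00), 2.47% (2.09 to 2.90), 1.85% (1.51 to 2.24) and 1.61% (1.26 to 2.03). The order stood there, but the UV and heat shock intervals overlapped that of HGF, with the UV interval only just doing so.

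The treatments differed mainly in peaks of the first exon. UTR5 peaks in exon 1 were 2.13% of annotated UV peaks (1.89 to 2.40) and 1.98% of heat shock peaks (1.71 to 2.28), against 1.12% of HGF peaks (0.909 to 1.36) and 0.813% of IFNg peaks (0.587 to 1.10). UTR5 peaks in a later exon were 0.726% of UV peaks (0.587 to 0.888) and 0.782% of heat shock peaks (0.616 to 0.980), against 0.711% of HGF peaks (0.547 to 0.909) and 0.755% of IFNg peaks (0.537 to 1.03). Their 4 intervals overlapped. Exon 1 held 607 of the 878 peaks (69.1%), exon 2 held 212 and exon 3 held 41. By treatment, exon 1 held 74.6%, 71.7%, 61.1% and 51.9% of the UTR5 peaks.

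Exon 1 kept this order among peaks with a score of 3 or more, and the later exons kept overlapping intervals, with 2.05%, 1.98%, 0.948% and 0.691% for exon 1 and 0.702%, 0.757%, 0.688% and 0.614% for later exons. So it was in the models with a peak in all 4 treatments, with 1.83%, 1.63%, 1.10% and 0.850% for exon 1 and 0.763%, 0.841%, 0.754% and 0.758% for later exons. Among the upper 50% of each treatment's peaks by score, heat shock came before UV in exon 1, with 2.03%, 2.13%, 0.857% and 0.694%. The order among later exons differed between these settings. In the models at percentile 90 or more in every treatment, however, later exons too had few peaks after the ligands. There, 13 UV, 12 heat shock, 5 HGF and 1 IFNg UTR5 peaks lay in later exons (0.674%, 0.742%, 0.416% and 0.117%), and 64, 55, 24 and 5 in exon 1. Transcript start peaks in exon 1 made up 8.17%, 7.13%, 2.89% and 0.774% of annotated peaks in the 4 treatments, a wider span than that of UTR5 peaks. Among peaks with either of these labels, UTR5 was 23.1%, 24.6%, 32.2% and 56.6%.

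**Figure D2:**
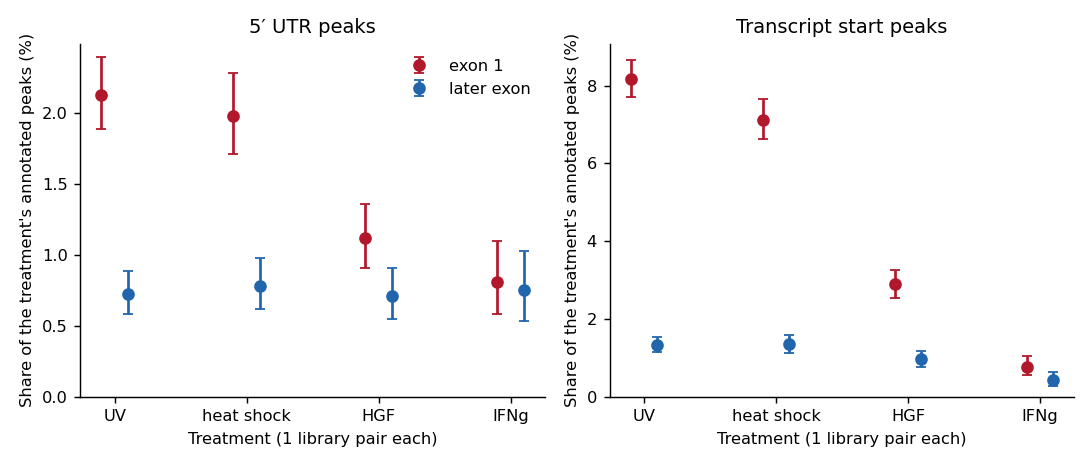
Share of each treatment's annotated peaks (y axis, %) that are 5′ UTR peaks (left) or transcript start peaks (right), in exon 1 (red) and in later exons (blue), with exact 95% intervals, for 1 library pair per treatment (x axis). For 5′ UTR peaks exon 1 runs from 2.13% after UV to 0.813% after IFNg, while later exons stay between 0.711% and 0.782%.

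Joined within 100 nt, the peaks gave 473 UTR5 sites. Of the 419 models, 372 held 1 site, 40 held 2 and 7 held 3. Sites of 1 model share its RNA and its expression. Peaks of different treatments at a site lay close together, with a median width of 17 nt over the 282 sites listed after more than 1 treatment. The label UTR5 was the only label at 431 sites, 27 sites also held a CDS label and 14 a TxStart label, and 1 held both.

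Of the 473 sites, 191 were listed after 1 treatment, 149 after 2, 76 after 3 and 57 after all 4. The share listed after all 4 was 12.1% (9.26 to 15.3), against 2.49% of transcript start sites (1.75 to 3.43), 16.9% of coding sites (16.1 to 17.8), 22.2% of sites around the stop codon (21.0 to 23.4) and 17.4% of 3′ UTR sites (16.1 to 18.6). UTR5 sites were thus shared by all 4 treatments more often than transcript start sites and less often than sites further along the transcript, with intervals that do not overlap. At like distances from the transcript start, however, UTR5 and coding sites had overlapping intervals. At 200 to 299 nt 8.16% of UTR5 sites and 10.5% of coding sites were listed after all 4, at 300 to 499 nt 11.6% and 12.8%, and at 500 to 999 nt 18.5% and 16.9%. From 1000 nt on, 0 of 18 UTR5 sites (0 to 18.5) and 17.8% of coding sites were. In later exons it was 26 of 130 UTR5 sites (13.5 to 27.9) and 17.3% of coding sites (16.4 to 18.2). The most frequent patterns were UV alone with 131 sites, UV with heat shock with 116, UV with heat shock and HGF with 62, and all 4 with 57. Heat shock alone gave 30 sites, HGF alone 21 and IFNg alone 9.

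**Figure D3:**
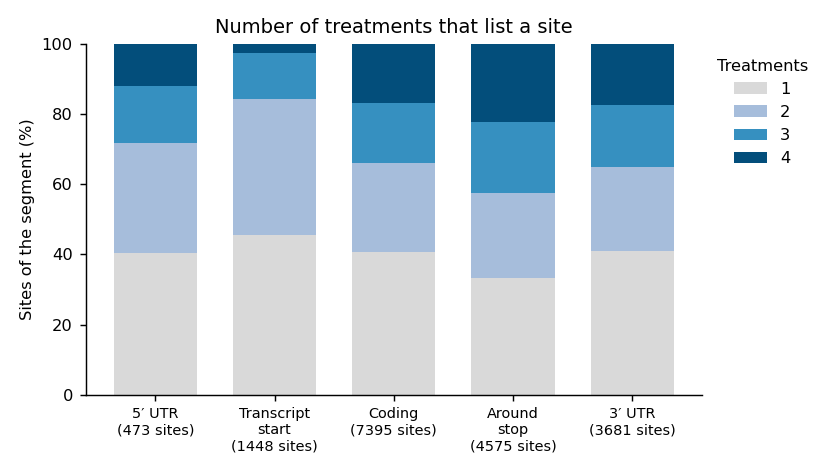
Stacked shares of sites (y axis, %) listed after 1, 2, 3 or 4 treatments, for the 5 segment labels (x axis, with the number of sites). The darkest band, all 4 treatments, is 12.1% for 5′ UTR sites, 2.49% for transcript start sites and 22.2% around the stop codon.

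Counted peak by peak, 88.7% of heat shock UTR5 peaks had a peak of another treatment within 100 nt, as did 87.0% of HGF and 88.9% of IFNg UTR5 peaks. For UV the share was 64.6%. UV also listed the most UTR5 peaks. Heat shock UTR5 peaks were matched by a UV peak in 83.0% of cases (77.9 to 87.3), by an HGF peak in 44.2% and by an IFNg peak in 21.9%. IFNg UTR5 peaks were matched by an HGF peak in 79.0% (68.5 to 87.3), by a heat shock peak in 72.8% and by a UV peak in 70.4%.

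Sites listed after UV or heat shock and after neither ligand numbered 277 of 473 (58.6%, 54.0 to 63.0), against 38 listed after a ligand only and 158 listed on both sides. The share was 73.6% for transcript start sites, 35.7% for coding sites, 34.9% around the stop codon and 42.0% in 3′ UTRs. Among UTR5 sites it was 66.8% in exon 1 (61.5 to 71.7, 343 sites) and 36.9% in later exons (28.6 to 45.8, 130 sites). Later exons lie further from the transcript start, with a median site position of 460 nt against 354 nt in exon 1, so the shares were also read at like distances. At 200 to 299 nt the share was 76.0% of 125 sites in exon 1 (67.5 to 83.2) and 36.4% of 22 sites in later exons (17.2 to 59.3). At 300 to 499 nt it was 66.1% of 124 sites (57.1 to 74.4) and 38.8% of 49 (25.2 to 53.8). From 500 nt on it was 55.3% of 94 sites (44.7 to 65.6) and 35.6% of 59 (23.6 to 49.1), and these intervals overlap.

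Coding sites closer than 500 nt gave similar values. At 200 to 299 nt the share was 70.1% of 107 coding sites in exon 1 and 40.7% of 113 in later exons, and at 300 to 499 nt it was 63.7% of 179 and 35.8% of 483. From 500 nt on it was 40.7% of 614 (36.8 to 44.7) and 33.7% of 5899 (32.4 to 34.9). There the coding share in exon 1 was below the 55.3% of UTR5 sites, with intervals that just overlapped, and the coding gap between exons was smaller. Coding sites of this class lay further along, with a median position of 1024 nt in exon 1 against 654 nt for UTR5. Whole sets of UTR5 peaks were placed accordingly: the median position of UTR5 peaks was 366 nt for UV and 386 nt for heat shock, against 437 nt for HGF and 491 nt for IFNg.

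**Figure D4:**
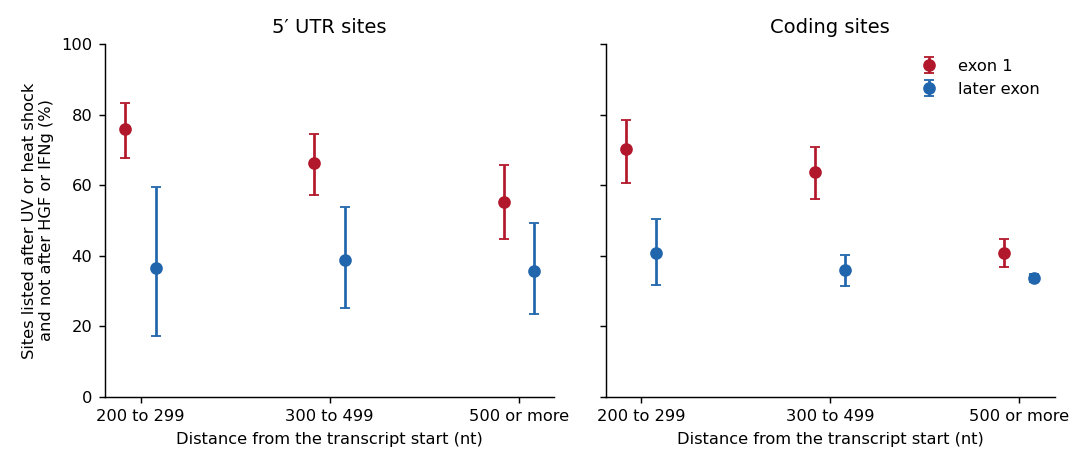
Share of sites (y axis, %) listed after UV or heat shock and after neither HGF nor IFNg, by distance from the transcript start (x axis, nt), for 5′ UTR sites at the left and coding sites at the right, with exact 95% intervals. Red points are sites in exon 1 and blue points sites in later exons. In 5′ UTRs the red points run from 76.0% to 55.3% with distance, and the blue points lie between 35.6% and 38.8%.

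The label UTR5 was given after all 4 treatments at 39 sites, 23 of them in exon 1. Their median score was 4.94 for UV and 4.00 for heat shock, with 4.19 for HGF and 2.94 for IFNg. Scores are given below as deposited, and they ran lower after the ligands over all UTR5 peaks. Treatments are therefore also compared by the rank of a score among all peaks of the treatment, written as a percentile. The median rank of the 39 sites was 71.1 for UV and 57.9 for heat shock, with 73.7 for HGF and 47.1 for IFNg. All UTR5 peaks together had median ranks of 48.4, 50.8, 43.7 and 40.2, and median scores of 4.00, 3.75, 3.12 and 2.79. Coding sites found in all 4 treatments had median ranks of 75.9, 69.1, 72.5 and 60.4. Sites found after 1 treatment had low scores, with median ranks of 28.2 for UV, 25.7 for heat shock, 26.0 for HGF sites and 29.7 for IFNg sites.

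**Figure D5:**
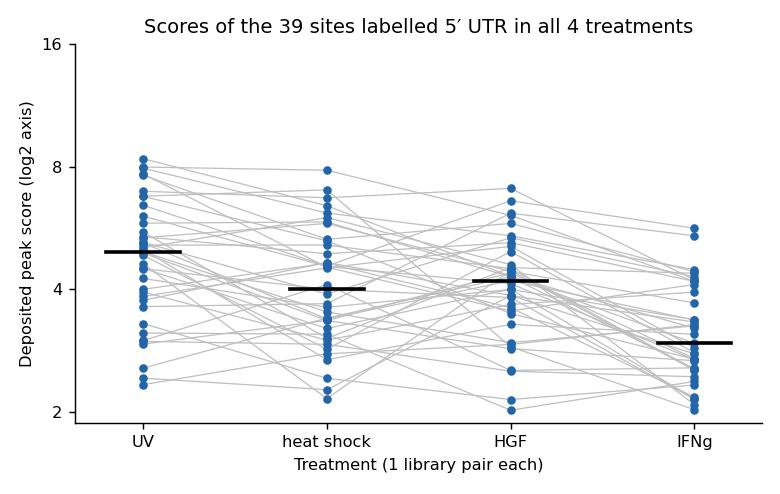
Deposited peak scores (y axis, log2 axis) of the 39 sites labelled 5′ UTR in all 4 treatments (x axis, 1 library pair each). Points are sites, grey lines join a site over treatments, and black bars are medians of 4.94, 4.00, 4.19 and 2.94.

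NFIB, a transcription factor of the nuclear factor I family, had the highest mean score rank of these sites. Its site at position 216 scored 7.98 and 7.83 after UV and heat shock, and 6.07 and 4.18 after the ligands HGF and IFNg. The site of PRKD3 at position 314 scored 6.96, 6.70, 7.07 and 4.21 in the same order. SQLE, the squalene epoxidase of cholesterol synthesis, had a site at position 843 that scored 7.93, 6.15, 5.41 and 4.47. In all 3 genes the IFNg score was the lowest of the 4. So was its rank, at 84.6 for NFIB, 85.5 for PRKD3 and 89.6 for SQLE.

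FEM1C, a substrate adaptor of a cullin ubiquitin ligase, scored 7.61, 5.30, 5.80 and 4.41 at position 531 in exon 2. The site of C9orf150 at position 511 scored 6.43, 4.56, 6.59 and 5.64. CDC42BPA scored 8.36 after UV, the highest score of any UTR5 peak, then 6.41, 4.30 and 3.21. The sites of C9orf150 and CDC42BPA differ in their order. By rank, C9orf150 was level after HGF and IFNg, at 98.76 and 98.75, above 93.2 for UV and 72.6 for heat shock. CDC42BPA ranked highest after UV. RBBP6, a ubiquitin ligase that binds the retinoblastoma protein, scored 5.35, 5.80, 4.42 and 3.70. U2AF2, the large subunit of the splicing factor that binds the polypyrimidine tract, scored 5.21, 3.89, 5.35 and 4.29 at position 639. ST3GAL2, a sialyltransferase, scored 5.38, 4.89, 5.20 and 4.18 at position 865. By rank, both stood higher after HGF than after UV, at 91.9 against 76.7 for U2AF2 and 90.6 against 79.8 for ST3GAL2. PCDH7, a protocadherin, scored 5.81, 5.85, 4.28 and 2.55, and CALML4 scored 7.67, 4.53, 3.54 and 4.10.

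Many of the 39 sites changed place between treatments, and some of those with the largest rank differences are named first. CASKIN2, a scaffold protein gene, scored 6.14 after HGF and 5.41 after IFNg, against 3.62 after UV and 3.68 after heat shock. Set against the median rank over the remaining treatments, its score rank stood 48.7 points higher after HGF and 49.2 higher after IFNg, while UV and heat shock gave differences of -58.7 and -48.7 points. NFE2L1, a transcription factor of proteasome genes, scored 3.85 after HGF and 3.32 after IFNg, against 2.42 after UV and 2.26 after heat shock. Its transcript stood at percentiles 95.6, 93.7, 96.5 and 97.5.

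ARMCX5, an X-linked armadillo repeat gene, ran the other way, with scores of 6.76 after UV and 7.01 after heat shock, against 2.89 after HGF and 2.02 after IFNg. Its transcript was at percentiles 63.3, 65.2, 73.4 and 66.2. C21orf58 was ordered likewise, with scores of 6.76, 5.26, 3.48 and 2.69. The RNA-binding protein gene RBM34 scored 5.05, 6.0 and 4.59 after the first 3 treatments and 2.08 after IFNg, a rank difference of -77.0 points. ANKRD50 scored 4.62 after UV and 4.44 after HGF, against 2.15 after heat shock and 2.53 after IFNg. By the same measure, a rank at least 25 points higher was found at 8 of the 39 sites for UV, 6 for heat shock, 8 for the HGF pair and 4 for the IFNg pair. A rank at least 25 points lower was found at 5, 11, 4 and 14 sites. No replicate shows how far a rank moves between cultures of 1 treatment.

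Other high scores belonged to sites that 1 treatment or more did not list as UTR5. FOSB had the second-highest UTR5 score after UV, 8.25, with 3.48 after HGF, 2.89 after IFNg and no peak after heat shock. Its transcript was at percentiles 47.2, 34.2, 61.6 and 56.9. The UV and heat shock values lie close to the lowest percentile of their treatment, 45.5 and 32.7, and cannot be ordered. The XPO1 site scored 8.12 and 7.42 after UV and heat shock, and 2.01 after HGF, close to the minimum of the table, and was not listed after IFNg. XPO1 transcript stood at percentiles 98.3, 98.9, 97.6 and 95. CLN8, a gene of an endoplasmic reticulum membrane protein, scored 8.0 after UV, with 5.57 and 5.87 after heat shock and HGF.

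The highest UTR5 score after IFNg was 6.51, at position 754 of MBNL2, a regulator of splicing. No other treatment listed a peak within 100 nt of it, while UV and heat shock listed a separate site at position 619 with 6.37 and 4.76. MBNL2 transcript was at percentiles 83.8, 82.9, 78.4 and 83.3. All 4 treatments listed a site near position 854 of RAB35, a small GTPase of endocytic recycling. It was labelled UTR5 after HGF and IFNg, with scores of 4.65 and 5.25, and CDS after UV and heat shock, with 5.84 and 3.64. TMEM123 scored 6.46, 6.95 and 3.11 in the first 3 treatments.

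Of the 7 models with 3 separate UTR5 sites, the 5 with the highest mean percentile are described here. BRD2, a bromodomain protein that reads acetylated histones, had sites at transcript positions 723, 1102 and 1650, all in exon 2. The site at 1650 scored 4.55, 2.81 and 2.45 after UV, heat shock and HGF, and the one at 1102 scored 4.25, 2.52 and 2.64. None of the 3 was listed after IFNg, when BRD2 stood at percentile 97.4. HEXIM1, an inhibitor of the elongation factor P-TEFb, had sites at 432, 1276 and 1588 in its single long exon. The last one scored 6.39 after UV, 6.42 after heat shock and 3.30 after IFNg, the one at 432 was listed after UV alone and the one at 1276 after HGF alone.

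SMAD6, an inhibitory SMAD of BMP signalling, had a site at 313 with scores of 3.17 after HGF and 3.51 after IFNg, and sites at 565 and 914 listed after UV alone with 2.76 and 2.44. In this leader the ligand treatments and UV listed different sites. AGPAT6, a glycerol phosphate acyltransferase, had a site at 265 with scores of 5.28 after UV, 3.81 after HGF and 2.96 after IFNg, and weaker ones at 564 and 881. SYNC, an intermediate filament protein gene, had its 3 sites at 355, 562 and 932, listed after UV or heat shock only.

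Sites listed after a single treatment were also present in transcripts that were abundant in every treatment. In models at percentile 90 or more throughout, 17 of 96 UTR5 sites were listed after UV alone, 8 after heat shock alone, 7 after HGF alone and 0 after IFNg alone. As shares these are 17.7%, 8.33%, 7.29% and 0% (0 to 3.77). In the same models the other labels had 13.4% to 21.4% for UV alone and 5.37% to 8.20% for heat shock alone. They had 3.69% to 13.7% for HGF alone and 0.185% to 17.8% for IFNg alone. Of these UTR5 sites the highest score was that of SMARCA5, an ISWI chromatin remodelling ATPase, with 6.76 after UV at position 349. SMARCA5 stood at percentiles 97.8, 98.2, 96.4 and 94.0. DDX3X scored 5.10 after UV at position 589, and its other site at 828 scored 5.26 after UV and 4.38 after heat shock. GDI2, a Rab GDP dissociation inhibitor, scored 5.20 after UV at position 206.

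Among these abundant models, the highest after heat shock alone was CSNK1A1, casein kinase 1 alpha, with 4.98 at position 273. It was followed by HSPH1, a chaperone of the HSP110 family, with 4.42 at position 377, by ACTR3 with 4.07 and by AATF with 2.78. HSPH1 transcript was at percentile 99.5 after heat shock, against 98.1, 93.7 and 93.3 after UV, HGF and IFNg. After HGF alone the tyrosine kinase gene ABL1 scored 3.69 at position 437, HNRNPUL1 scored 2.64 and PTP4A1 scored 2.35. Of the 9 sites listed after IFNg alone in models of any abundance, MBNL2 is described above, and KIAA0754 with 4.27 and WDR53 with 2.95 came next. APOL2 with 2.51 and BIRC3 with 2.67 scored lower and were picked out after their values were seen.

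Over the 11185 coding gene symbols that reached percentile 60 in at least 1 treatment, the UV pair listed a UTR5 peak for 3%, the heat shock pair for 2.19%, the HGF pair for 1.34% and the IFNg pair for 0.697%, and 3.67% had one in any treatment. Counts in the gene lists are read against these shares. Neither the lists nor these symbols were limited to genes with a leader long enough for the label. Of 25 immediate early genes, 4 had a UTR5 peak in any treatment. They were FOSB, JUN, FOSL2 and MYC, all transcription factors. JUN was listed after UV with 3.96 and after heat shock with 2.49 at position 941. FOSL2, with 3.02 at 635, and MYC, with 2.63 at 336, were listed after heat shock only, while the MYC transcript was at percentiles 97.3, 98.2, 99.3 and 99.5.

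Of 16 genes with long structured leaders, 3 had a UTR5 peak, JUN, MYC and VEGFA. VEGFA, the angiogenic growth factor, scored 2.66 after UV and 3.32 after heat shock at position 466, and was not listed after HGF or IFNg, when its transcript was higher, at percentiles 94.8 and 96.9 against 83.2 and 84.0. Of 20 genes regulated by upstream open reading frames, AMD1 and SLC35A4 had a UTR5 peak. AMD1, an enzyme of polyamine synthesis, scored 3.71 after heat shock only. The sites of SLC35A4 were at 338 after UV, with 3.26, and at 528 after heat shock and IFNg, with 3.08 and 3.84.

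Among 30 genes of the heat shock response, 2 had a UTR5 peak, BAG3 and HSPH1, both after heat shock only. BAG3, a co-chaperone of HSP70, scored 2.77 at position 282 and was at percentiles 93.5, 95.6, 92.9 and 93.0. The share after heat shock, 6.67%, was above the 2.19% over all symbols but rests on 2 genes. In the same list 14 genes had a transcript start peak after UV and 14 after heat shock, against 5 after HGF and 0 after IFNg. As shares these are 46.7%, 46.7%, 16.7% and 0%, beside 10.9%, 7.21%, 3.03% and 0.554% over all symbols, which were also lower after both ligands. The shares over all symbols were not matched for abundance, and transcript start peaks lay in abundant transcripts. At percentile 90 or more stood 690 models with such a peak after UV, beside 2463 coding models. After heat shock these were 538 and 2472. HSPH1 was among the list genes with a transcript start peak after UV, so its UV and heat shock peaks carry different labels.

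None of 36 IFNg response genes, 74 cytosolic ribosomal protein genes and 4 hepatocyte genes past the filter had a UTR5 peak in any treatment. Over all symbols the share was 3.67%, so lists of 36 or 4 genes can hold few such peaks. Leader lengths of these genes were not checked, and a short leader cannot carry the label. The absence of UTR5 peaks here is therefore not read as a lack of m6A. A transcript start peak in some treatment was listed for 11 of the 74 ribosomal protein genes (14.9%), close to the 12.8% of all symbols. Of 28 ubiquitin ligases and adaptors, 3 had a UTR5 peak (10.7%), a share that rests on 3 genes. CUL1, a cullin scaffold, scored 6.04 and 6.09 after UV and heat shock, and 2.92 after HGF. KLHL9, an adaptor of cullin 3, was listed after all 4 with 3.12, 3.10, 2.02 and 2.37, and RNF111 was labelled UTR5 after HGF only. Of 39 translation initiation factors 1 had a UTR5 peak (2.56%). It was PABPC1, the cytoplasmic poly(A)-binding protein, with 3.71 after UV and 3.95 after heat shock. Of 23 genes of m6A writers, erasers and readers, 1 had a UTR5 peak (4.35%), the demethylase ALKBH5, with 3.37 after UV. Of 37 chromatin regulators it was 1 (2.70%), BRD2. Each of these last shares rests on 1 gene and is near the 3.67% over all symbols, so none is read as a trait of its list.

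UTR5 peaks lay in transcripts of middle to high abundance. Models with a UTR5 peak had median percentiles of 82.9 for UV, 84.4 for heat shock, 82.0 in the HGF pair and 81.7 in the IFNg pair, against 79.0, 79.7, 79.0 and 82.9 for models with peaks of other labels only. Models with transcript start peaks were higher, at 91.7, 93.9, 90.2 and 91.2. At percentile 90 and above, 4.47% of coding models had a UTR5 peak after UV and 3.8% after heat shock, against 1.60% with HGF and 0.522% with IFNg. At percentiles 75 to 90 the shares were 3.03%, 2.17%, 1.78% and 1.10%. The share was thus highest in the top class after UV and heat shock, while after HGF and IFNg it was lower in the top class than in the one below, though the intervals overlap, at 1.14 to 2.17 and 1.38 to 2.26 for HGF and at 0.278 to 0.891 and 0.794 to 1.5 for IFNg. The 419 models had near equal median percentiles in the 4 treatments, at 83.0, 81.9, 82.9 and 83.4. So did the 7533 models with other peaks only, at 79.0, 78.5, 79.3 and 79.6. Percentiles are ranks within a treatment, and the part of expression in the differences between treatments was not tested.

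Many of these transcripts carried m6A peaks elsewhere. A coding peak was listed in the same treatment for 35.2% of UTR5 models in the UV pair and 36.0% in the heat shock pair, 40.4% with HGF and 34.6% with IFNg. Models with a peak around the stop codon had a coding peak in 30.0%, 27.0%, 26.1% and 23.5%. A peak around the stop codon was listed for 36.9%, 30.4%, 24.5% and 20.5% of UTR5 models. Among models with a coding peak it was close to that, at 34.8%, 28.6%, 27.2% and 20.2%. A transcript start peak stood beside a UTR5 peak in 9.88%, 6.48%, 3.31% and 1.28% of the UTR5 models, in 34, 16, 5 and 1 models. Models with a coding peak had a transcript start peak in 8.46%, 6.48%, 2.43% and 0.767%. The leader held the only labelled peaks of the model in 29.9%, 33.6%, 33.1% and 48.7%.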

How the data were processed

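8 libraries (IP and input for each of 4 treatments, 1 library per group) were represented by 1 deposited table of gene models, in which the authors list for each treatment the peaks' transcript position, exon, exon length, segment label and score, and an expression quantile. The deposited score, with a minimum of 2, was used as given and as a rank among a treatment's peaks. The deposited quantile, an expression rank on a scale outside the usual expression units, was multiplied by 100. Read depth is unknown, and aligner, peak caller and genome build are not given in the sources used here. Libraries came from fragmented polyA+ RNA with random priming, before or after binding to the antibody, per the labels.

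UTR5 entries were taken by label. Peaks of a gene model whose neighbours lay within 100 nt were joined to sites, a step checked on simulated data. The simulated sites were narrow and far apart, so the check could not show wrong joining or splitting of close sites. Intervals are exact Clopper-Pearson at 95%. Exon 1 was matched to GENCODE 29 (GRCh38) by symbol, chromosome, strand and exon length, and positions were counted from the transcript start. No test across conditions was possible with 1 library per group. Genes were named by rule: the 12 sites in all 4 treatments with the highest mean score rank, the 4 highest scores per treatment, the 5 models with most sites, the 4 highest sites of a single treatment at percentile 90 or more throughout, per treatment the 4 sites whose score rank stood highest and the 4 whose rank stood lowest against the other treatments, and members of 11 gene lists. Outside these rules, KIAA0754, WDR53, APOL2 and BIRC3 were named among the sites listed after IFNg alone. The lists and their members were chosen with earlier results of these data known. Python 3.11.15, pandas 2.3.3, NumPy 2.4.6 and SciPy 1.17.1 were used.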

Additional observations from a re-analysis of the deposited data

How the results depend on the processing

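The 9 alternative settings were another joining distance, a score of 3 or more, 1 model per gene symbol, abundant models, models with a peak in all 4 treatments, peaks outside the first exon, peaks from position 200 on, and joining UTR5-labelled peaks alone, the last chosen after seeing the data. Of 131 alternative values, 95 stayed within 1.5 times (counts) or within the 95% interval (shares and medians), and 36 moved. The 95 include 19 values of the setting from position 200 on, which could not change because the label begins there. They also include 19 values with 1 model per gene symbol. That setting kept the model with most UTR5 peaks, so its values could hardly move. With joining at 50 nt, the matched share of HGF peaks was 79.6%. With a score of 3 or more, the matched share was 59.1% for UV and 82.4% for heat shock, and 14 sites carried the label in all 4 treatments, against 39. In models averaging percentile 75 or more, there were 314 sites, 23 labelled in all 4 treatments and 108 listed after 1, and 71.1% of UV peaks were matched. In models with a peak in all 4 treatments, there were 238 sites, 78 listed after 1, and 73.4% of UV peaks were matched. Outside the first exon, the shares were 0.726% for UV and 0.782% for heat shock, with 0.711% for HGF and 0.755% for IFNg, 78.7% of UV peaks were matched, and there were 131 sites, 16 labelled in all 4 treatments and 42 listed after 1. Joining at 50 nt changes only the matching distance, and the other settings named keep fewer peaks or models by construction. GTCC was in 14.0% of UTR5 windows of 51 nt and 46.8% of those of 201 nt. No paired analysis was possible because every group holds 1 library. Read depth is unknown, so a peak missing from a treatment may have been below what its libraries could show.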
